A study of Mus musculus with 12 samples.

Results

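Open chromatin in mouse aortic endothelial cells (MAECs) was compared between the groups at opposite corners of a diet design, WDM-WDO and CDM-CDO. In ATAC-seq a transposase inserts sequencing adapters where DNA is accessible, and each stretch with more insertions than its surroundings is called a peak. In WDM-WDO both the mothers (M) and the offspring (O) had WD, and the offspring were given it again for 4 weeks. In CDM-CDO both generations had CD. The title of the series names high-fat feeding of mothers and atherosclerosis in offspring, and genotype, strain, sex and age are not given in the labels. The names of the peaks inside the files carry 12w in WDM-WDO and 08w in CDM-CDO, so the diets and whatever this number marks cannot be told apart. The labels give 2 ATAC-seq samples per group and each group had 1 peak list. No spread between replicates could therefore be measured, and no difference below carries a p-value. Percentages in brackets after a share are 95% Wilson intervals, which cover counting error only.

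The members are the peaks of either list that overlapped no peak of the other by at least 1 bp on chromosomes 1 to 19 and X. They were 12044 of the 26275 WDM-WDO peaks (45.8%, 45.2 to 46.4%) and 8063 of the 22178 CDM-CDO peaks (36.4%, 35.7 to 37.0%), termed one-sided here, out of 95734 peaks in the 4 lists of the series. The others, 14231 and 14115 peaks, were shared. With the WDM-WDO list cut to its strongest 22178 peaks the order turned, to 8358 one-sided peaks in WDM-WDO and 8453 in CDM-CDO, so the order of the counts was not kept at equal length. The other groups, WDM-CDO (28319 peaks, names with 08w) and CDM-WDO (18962 peaks, names with 12w), took no part in choosing the members. A place without a called peak is not shown to be closed.

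Endothelial cells line the vessel and control what leaves the blood. In the atherosclerotic aorta, monocytes attach to activated endothelium, enter the wall and become macrophages that take up cholesterol. Myeloid cells, the family of monocytes, macrophages and neutrophils, depend on the transcription factor PU.1, which binds purine-rich sites with a GGAA core. Adhesion molecules and chemokines on the endothelium bring in leukocytes, and the AP-1 and interferon regulatory factors (IRF) act on many genes of inflammation. At the start of most widely used genes lies a promoter rich in CG dinucleotides that is open in nearly every cell, whereas promoters poor in CG tend to belong to genes of particular cell types.

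A set of promoters is shown first because the letters in capitals recur in the results. Each belongs to a gene with a WDM-WDO peak over the capitals and no CDM-CDO peak within 1 kb of the gene start. They are the 250 bases before the start from RefSeq on GRCm38.p6, read 5′ to 3′ along the gene, and they lie on the plus strand. S100a8 (chr3:90668821-90669070) encodes a calcium-binding protein of neutrophils and monocytes, and Mmp8 (chr9:7558179-7558428) encodes neutrophil collagenase. Their capitals mark GAGGAAGT, the PU.1 letters, on the opposite strand. Ifit1 (chr19:34640639-34640888) is an interferon-induced gene whose capitals mark the IRF letters, GAAA followed after 2 bases by another GAAA, on the opposite strand. Procr (chr2:155750967-155751216) encodes the endothelial protein C receptor, and its capitals mark TGACTCA, the AP-1 letters.
S100a8: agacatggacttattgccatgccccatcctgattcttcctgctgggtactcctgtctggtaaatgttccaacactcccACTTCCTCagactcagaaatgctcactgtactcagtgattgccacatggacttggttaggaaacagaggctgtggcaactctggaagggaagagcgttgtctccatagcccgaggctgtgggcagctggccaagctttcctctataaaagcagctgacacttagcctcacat
Mmp8: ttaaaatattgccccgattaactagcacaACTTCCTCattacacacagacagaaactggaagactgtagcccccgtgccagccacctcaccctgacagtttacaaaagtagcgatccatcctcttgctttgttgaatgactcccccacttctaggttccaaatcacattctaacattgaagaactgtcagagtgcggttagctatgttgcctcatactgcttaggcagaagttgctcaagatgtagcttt
Ifit1: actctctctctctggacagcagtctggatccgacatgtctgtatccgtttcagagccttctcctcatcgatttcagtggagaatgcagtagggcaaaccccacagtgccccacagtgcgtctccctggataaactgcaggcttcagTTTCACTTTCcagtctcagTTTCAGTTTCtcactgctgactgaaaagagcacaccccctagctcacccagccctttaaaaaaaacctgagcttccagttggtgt
Procr: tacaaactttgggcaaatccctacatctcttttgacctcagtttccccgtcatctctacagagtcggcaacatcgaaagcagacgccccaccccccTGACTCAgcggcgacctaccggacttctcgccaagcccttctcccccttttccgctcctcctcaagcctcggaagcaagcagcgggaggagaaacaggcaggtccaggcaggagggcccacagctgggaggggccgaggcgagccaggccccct

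The S100a8 peak of WDM-WDO held 36 reads at its summit and that of CDM-WDO 22, with no call in the CDO lists. The Mmp8 peak held 21 reads and was called in WDM-WDO alone among the 4 lists. Ifit1 had 46 reads in WDM-WDO and 26 in WDM-CDO, and no gene-start peak in CDM-CDO or CDM-WDO. Procr had 42 reads in WDM-WDO and a gene-start peak in WDM-CDO, not in CDM-WDO. Reads at the summit are whole pileups worked out from the deposited values. The weakest called peak had 16 reads in WDM-WDO and 14 in CDM-CDO, so the Mmp8 peak stood near the lower limit of a call.

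One-sided peaks were weak and lay mostly away from gene starts. Their median pileup was 26 reads in WDM-WDO and 22 in CDM-CDO, against 59 and 50 reads for shared peaks, and their median width was 405 and 416 bp against 753 and 758 bp. A peak within 1 kb of the start of a protein-coding gene, or of either end where the reference used gave no start, is called a gene-start peak. Such peaks made up 9.90% of the one-sided WDM-WDO peaks and 15.2% of the one-sided CDM-CDO peaks, against 62.5% and 62.3% of the shared ones. Another 44.5% and 40.2% lay within a gene, and 45.6% and 44.5% between genes. The share without a counterpart fell with peak strength, from 92.4% in the weakest 10% of the WDM-WDO list to 0.419% (11 of 2628) in the strongest, and from 86.3% to 0.902% (20 of 2218) in CDM-CDO. At the strength they had, and scaled to the other library, 2366 of the one-sided WDM-WDO peaks (19.6%) and 1581 of the CDM-CDO ones (19.6%) would have held at least 2 times the lowest pileup called in the other list. At the edge of the rule, the 3 narrowest overlaps were 1, 2 and 2 bp, and the 3 nearest misses were 2 pairs that touched and 1 pair with a gap of 3 bp.

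The lists left out of the rule showed where the members recurred. Of the one-sided CDM-CDO peaks, 42.1% (41.1 to 43.2%) were also in WDM-CDO and 9.70% (9.07 to 10.4%) in CDM-WDO. Of the one-sided WDM-WDO peaks, 23.2% (22.4 to 23.9%) were in WDM-CDO and 14.5% (13.9 to 15.1%) in CDM-WDO, and 70.7% were in neither. Of the shared peaks, counted on the CDM-CDO list, 95.1% were in WDM-CDO and 74.4% in CDM-WDO. With all 4 lists cut to 18962 peaks the shares for WDM-WDO became 25.15% and 24.8%, so its difference between the other lists was not kept at equal length. The shares for CDM-CDO were then 48.2% and 13.6%. Strong one-sided CDM-CDO peaks recurred in the list with the same offspring diet and the same number in its peak names: of the 20 in the strongest 10% of the list, 90% were in WDM-CDO and 0 in CDM-WDO. Of the 100 strongest one-sided peaks of each list, those of WDM-WDO were in WDM-CDO for 86 and in CDM-WDO for 83, and those of CDM-CDO for 98 and 11.

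**Figure D1:**
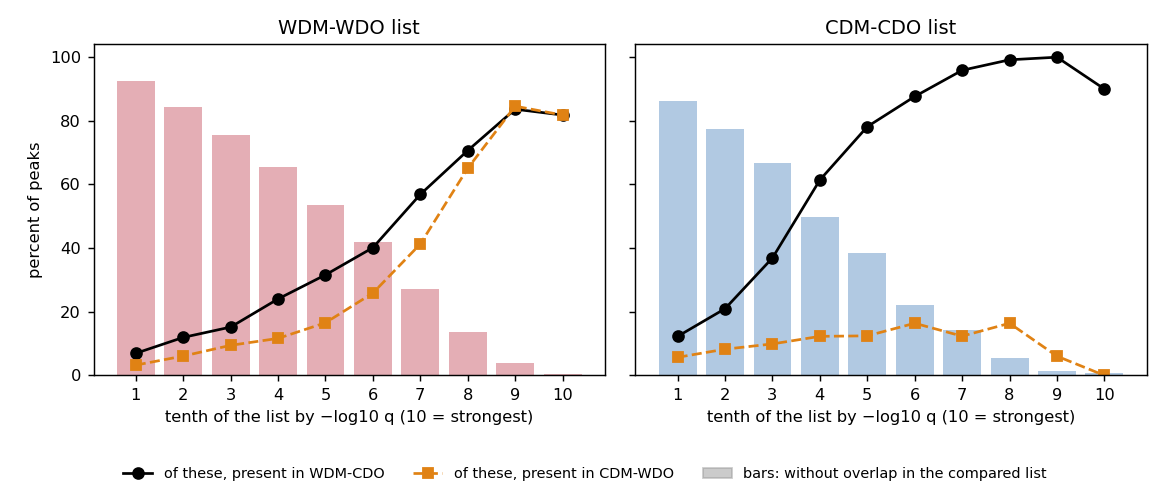
Percent of peaks without overlap in the compared list (bars), for 10 classes of equal size of the WDM-WDO list (left) and the CDM-CDO list (right) in order of −log10 q, and the percent of these one-sided peaks that were present in WDM-CDO (circles) and CDM-WDO (squares). One-sided peaks were 92.4% and 86.3% of the weakest classes and under 1% of the strongest, and in CDM-CDO the strong ones were in WDM-CDO and seldom in CDM-WDO.

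Many macrophage marker genes, and some neutrophil ones, were open at the start in WDM-WDO and not in CDM-CDO. Over all 21631 protein-coding genes, 9669 had a gene-start peak in both lists (44.7%), 893 in WDM-WDO alone (4.13%) and 1009 in CDM-CDO alone (4.66%). Of 16 macrophage and monocyte markers, 8 had one in WDM-WDO alone, 0 in CDM-CDO alone and 3 in both. They were Spi1, which encodes PU.1 (72 reads), Csf1r, the receptor for the growth factor of macrophages (57), C1qb, a subunit of complement C1q (50), Trem2, a lipid-sensing receptor (48), Fcgr1, a receptor for immunoglobulin G (40), Itgam, an integrin of myeloid cells (33), Lyz2, lysozyme (33), and Adgre1, the F4/80 antigen (28). In the remaining lists only Spi1 in CDM-WDO (37 reads) and Fcgr1 in WDM-CDO (19 reads) had a gene-start peak. For Spi1, Csf1r and Adgre1 here, and below for Sox7, Esam, Ccl2, Ccl7, Nfkb1, Tlr7, Fabp4, Gclc, Hey1, Angpt2, Pxn, Actb and Ywhaz, the start was not in the reference used, and a peak near either end of the gene was taken. Over the 4 lists, 11 of the 16 markers had a gene-start peak in WDM-WDO, 3 in CDM-CDO, 3 in WDM-CDO and 4 in CDM-WDO, against 48.8%, 49.4%, 52.5% and 41.4% of all genes.

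Neutrophil markers had a gene-start peak in WDM-WDO alone for 4 of 12 members and in CDM-CDO for 0. These were Csf3r, the receptor for granulocyte colony-stimulating factor (40 reads), S100a8 (36), Mmp8 (21) and Retnlg (18). At equal list length, and likewise when peaks under a −log10 q of 5 were left out, 2 of the 12 remained in WDM-WDO alone. The granule genes Elane, Mpo, Camp and Ltf had none in any list. Around the macrophage markers, 26 of 34 WDM-WDO peaks were one-sided (76.5%) and 5 of 14 CDM-CDO peaks, where peaks within 100 kb of any gene were one-sided for 43.3% and 32.7%. Mrc1, the mannose receptor, had 2 peaks in WDM-WDO and 0 in the other lists. In a bulk sample more cells of a type and more open chromatin per cell cannot be told apart.

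Genes of the endothelium itself did not move one way. Of 22 endothelial identity genes, a gene-start peak was found for 8 in WDM-WDO, 9 in CDM-CDO, 11 in WDM-CDO and 9 in CDM-WDO. The shares of 36.4% and 40.9% in the compared lists lie below those of all genes, and Pecam1, Cdh5, Tek, Emcn, Robo4 and Vwf, among the defining markers, had none in any list. Esam, a junction protein, had a gene-start peak in WDM-WDO (28 reads) and not in CDM-CDO. The transcription factor genes Erg (23 reads) and Sox7 (28 reads) had one in CDM-CDO and not in WDM-WDO. All 3 had one in WDM-CDO and CDM-WDO as well. One-sided peaks made up 23 of 47 near these genes on each side (48.9%). Cdh5, which encodes VE-cadherin, had 3 peaks nearby in WDM-WDO, 1 in CDM-CDO, 6 in WDM-CDO and 4 in CDM-WDO. Of 13 smooth muscle markers, 2 had a gene-start peak in CDM-CDO alone, Acta2 (22 reads) and Des (21 reads), and of 14 fibroblast markers 2 had one in WDM-WDO alone, Postn (34 reads) and Col1a2 (26 reads). Over all genes 4.66% were in CDM-CDO alone and 4.13% in WDM-WDO alone. The counts of these markers and of the blood cell markers differed between the groups beside the other gene lists described here, and their part in those results was not tested.

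T cell genes were more often open at the start in CDM-CDO alone, and B cell genes were split. Of 17 T cell markers, 4 had a gene-start peak in CDM-CDO alone: Cd3e (68 reads) and Cd3d (55 reads) of the T cell receptor complex, the kinase gene Zap70 (36 reads) and the transcription factor gene Tcf7 (36 reads). The Cd3d peak overlapped a WDM-WDO peak that ended outside the window. Il7r, the interleukin 7 receptor, was the 1 member open at the start in WDM-WDO alone (74 reads). Of the 17, a gene-start peak was present for 11 in WDM-WDO, 14 in CDM-CDO, 13 in WDM-CDO and 1 in CDM-WDO, the last being Gata3. Over all genes these shares were 48.8%, 49.4%, 52.5% and 41.4%. Of 12 B cell markers, 4 were in CDM-CDO alone, among them Cd79b (167 reads) and Blk (34), both near either end of the gene, and Fcer2a (18), and 3 in WDM-WDO alone, Blnk (72), Cd79a (25) and Cr2 (21).

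**Figure D2:**
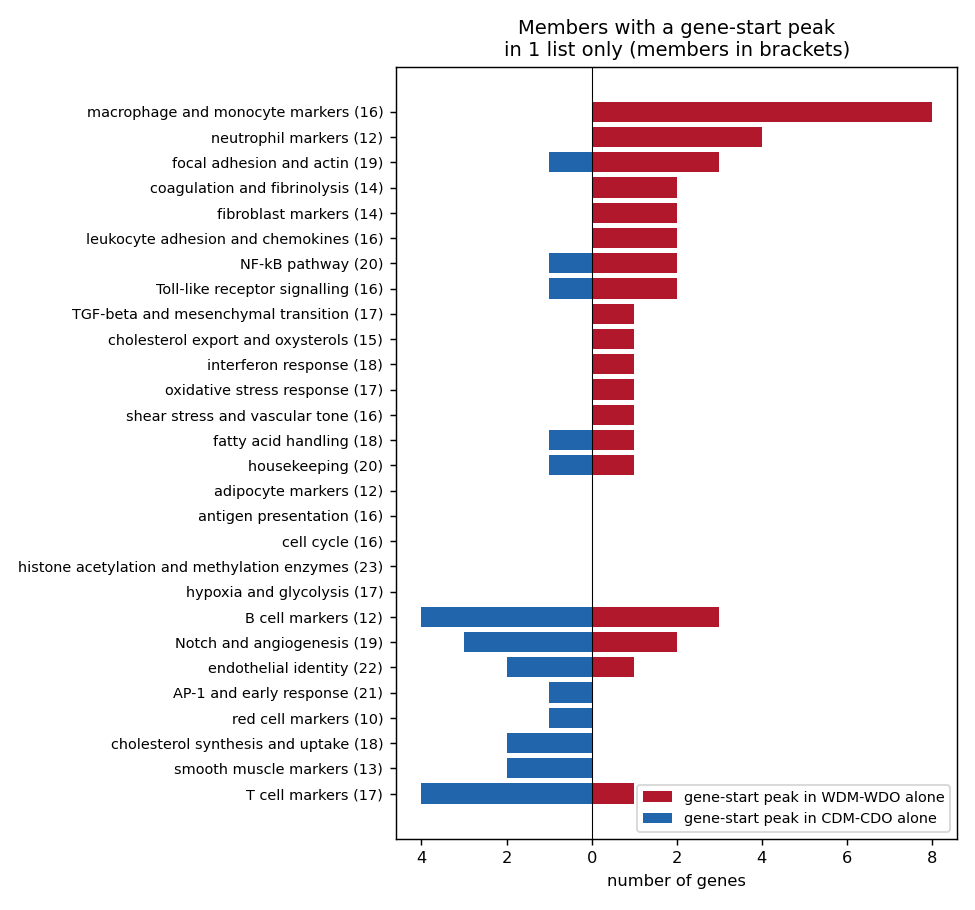
Number of genes of each list with a gene-start peak in WDM-WDO alone (right) or CDM-CDO alone (left), with the number of members in brackets. Macrophage and monocyte markers (8 against 0) and neutrophil markers (4 against 0) lie at the top and T cell markers (1 against 4) at the bottom.

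Genes of leukocyte recruitment had further peaks in WDM-WDO. Ccl2, the main chemokine for monocytes, had a gene-start peak of 58 reads in WDM-WDO, one of 32 in CDM-WDO, and none in either CDO list, and all 4 of its peaks in WDM-WDO were one-sided. Ccl7, a related chemokine, had 32 reads in WDM-WDO and 21 in WDM-CDO. Of the 16 adhesion and chemokine genes these were the 2 in WDM-WDO alone, with 0 in CDM-CDO alone and 8 in both. Around the list, 17 of 29 WDM-WDO peaks were one-sided (58.6%) and 2 of 14 CDM-CDO peaks, beside 43.3% and 32.7% near any gene. Vcam1, Sele and Selp, endothelial adhesion molecules, had no gene-start peak in either list. In the Toll-like receptor list Tlr3 (33 reads) and Tlr1 (22 reads) were in WDM-WDO alone and Tlr7 (19 reads) in CDM-CDO alone, of 16, and in the interferon list Ifit1 was the 1 such gene of 18. The NF-kB list had Bcl3 (70 reads) and Tnip1 (45 reads) in WDM-WDO alone and Nfkb1 (34 reads) in CDM-CDO alone, of 20. The Bcl3 peak overlapped a CDM-CDO peak of 44 reads outside the window, and it is also counted as a shared gene-start pair below. Over all genes 4.13% had a gene-start peak in WDM-WDO alone and 4.66% in CDM-CDO alone.

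Single lipid genes had several WDM-WDO peaks and few or none in CDM-CDO. Around 18 fatty acid genes, 31 of 54 WDM-WDO peaks (57.4%) and 4 of 27 CDM-CDO peaks (14.8%) were one-sided, beside 43.3% and 32.7% of the peaks near any gene. Cd36, a scavenger receptor that takes up fatty acids and oxidised lipoprotein, had 7 peaks in WDM-WDO, 0 in CDM-CDO, 2 in WDM-CDO and 9 in CDM-WDO. Pparg, a nuclear receptor of lipid storage, had 7, 1, 2 and 1 in that order. Around the cholesterol export genes the shares were 27 of 52 (51.9%) and 7 of 32 (21.9%), and Abca1, the transporter that loads cholesterol onto apolipoprotein A-I, had 18 peaks in WDM-WDO, 6 in CDM-CDO, 11 in WDM-CDO and 9 in CDM-WDO. Apoe had a gene-start peak of 41 reads in WDM-WDO alone among the 4 lists. Around the cholesterol synthesis genes 5 of 21 WDM-WDO peaks (23.8%) and 2 of 20 CDM-CDO peaks (10%) were one-sided. At their starts, 2 of 18 members had a peak in CDM-CDO alone and 0 in WDM-WDO alone. That is 11.1% (3.10 to 32.8%) beside 4.66% of all genes. Both had a gene-start peak in CDM-CDO and WDM-CDO only, among them Scap, the sterol sensor that escorts SREBP (42 reads). Around the shear stress genes 19 of 40 WDM-WDO peaks were one-sided (47.5%), close to the 43.3% near any gene, and 2 of 23 CDM-CDO peaks (8.70%). Among them Edn1, which encodes the vasoconstrictor endothelin-1, had 7 peaks in WDM-WDO and 1 in CDM-CDO, and a gene-start peak of 46 reads in WDM-WDO, 50 in WDM-CDO and 30 in CDM-WDO.

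Across all genes, Lpp, a focal adhesion protein gene, had the largest excess of one-sided peaks in WDM-WDO, 15 of its 17 with 1 of 3 in CDM-CDO. It was followed by Abca1 (13 of 18 against 1 of 6), Dock10 (11 of 15 against 1 of 5), Tns3 (11 of 13 against 1 of 3) and, tied in the difference of one-sided peaks, Creb5 (10 of 13 against 1 of 4), Rbm47, Slc41a2 and Tomm20. Dock10 is a guanine nucleotide exchange factor gene, Tns3 is a tensin of focal adhesions and Creb5 is a bZIP transcription factor gene. In CDM-CDO the leading gene was Frmpd4 on the X chromosome, with 7 peaks against 0, followed by 7 genes tied at 6 more one-sided peaks than in WDM-WDO, among them Nfatc1, a transcription factor gene of activated lymphocytes. Lpp spans 599 kb, Abca1 129 kb and Frmpd4 1106 kb, and peak numbers were not scaled to gene length.

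Of the 28 lists, 5 held no one-sided gene start: antigen presentation, hypoxia and glycolysis, cell cycle, histone acetylation and methylation enzymes, and adipocyte markers. Focal adhesion and actin genes had Pxn (123 reads), Itga5 (56) and Parvb (42) in WDM-WDO alone and Actb in CDM-CDO alone, of 19. Notch and angiogenesis genes had Plxnd1 (64 reads) and Vegfc (21) in WDM-WDO alone and Hey1 (52), Angpt2 (27) and Dll1 (22) in CDM-CDO alone, of 19. Coagulation genes had Plaur, the urokinase receptor (73 reads), and Procr in WDM-WDO alone, of 14. The shares in WDM-WDO alone were 15.8% (5.52 to 37.6%), 10.5% (2.94 to 31.4%) and 14.3% (4.01 to 39.9%) for these lists, beside 4.13% of all genes. Those in CDM-CDO alone were 5.26% (0.935 to 24.6%), 15.8% (5.52 to 37.6%) and 0%, beside 4.66%. The counts are small and the intervals wide. Gclc (47 reads), which makes glutathione, Zeb2 (55 reads), a repressor of epithelial genes, and Tubb5 (62 reads) were in WDM-WDO alone, and Batf3 (22 reads), Fabp4 (34) and Ywhaz (25) in CDM-CDO alone. Of the 39 list members in WDM-WDO alone, 26 kept that place when peaks under a −log10 q of 5 were left out, and 35 when the lists had equal length. For the 24 in CDM-CDO alone these counts were 13 and 24.

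The strongest gene-start peaks of WDM-WDO alone were at Tjp3, a tight junction protein gene (chr10:81292551-81293313, −log10 q 137), the chemokine gene Cxcl16 (63.0), Ehbp1l1, Dnajc5, Slc4a2, Mboat4, the stress cytokine gene Gdf15, Clic1, Cfap97 and Capg. All but Capg overlapped a CDM-CDO peak that ended outside the 1 kb window, as did 23 of the 893 genes (2.58%) and, the other way round, 30 of the 1009 (2.97%). Capg, an actin-capping protein gene (chr6:72548991-72550113), had 123 reads in WDM-WDO and a gene-start peak in CDM-WDO. Chosen after values were seen, the next genes without any overlap were the MHC gene H2-Q7 (−log10 q 36.5), Adamts13, which cleaves von Willebrand factor (33.5), Zmynd15 (31.3), Ropn1l (29.6), Nlrp3, the inflammasome sensor (29.5), Myl6b (29.1), Cln3 and Apobr at a single peak (29.0) and Hspb7 (29.0). In CDM-CDO alone the order was Actb, Cd79b, Ly6d, Zbtb7a, Gas7, Tmem160, Gm30990, Msmb, Slc30a1 and Zmynd19. Of these, Zbtb7a, Gm30990 and Msmb overlapped a WDM-WDO peak outside the window. For Actb, Cd79b, Ly6d, Gas7, Gm30990 and Msmb a peak near either end of the gene was taken, which need not be the start. The same was done for Cxcl16, Dnajc5, Mboat4, Cfap97 and Zmynd15 among the WDM-WDO genes above. Of the 893 genes, 48.2% had a gene-start peak in WDM-CDO and 20.4% in CDM-WDO. Of the 1009, 71.7% and 23.9% did.

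Of the 20 strongest one-sided CDM-CDO peaks, 4 lay in constant regions of immunoglobulin genes, against 0 of the 20 strongest shared CDM-CDO peaks. The first was in Igkc, the constant region of the immunoglobulin kappa chain (chr6:70726445-70726929), with 998 reads in CDM-CDO and 865 in WDM-CDO and no peak in either WDO list. Ighm, the mu heavy chain constant region (chr12:113420933-113422691), had 405 and 367 reads, Iglc2 125 and 95, and Iglc1 107 and 81, also with no peak in the WDO lists. At the end of the cytoskeletal actin gene Actb, which counts as a gene-start peak only because either end was taken (chr5:142903128-142903458) there were 450 reads. Others among the strongest 20 were in Bhlhe41 (271 reads), Dnase1l3 (262), Cd79b (167), H2-D1 (197), Ly6d (153), Tmsb4x (135), Tubb5 (164) and H2-Ab1 (169), and 3 of the 20 were in pseudogenes. Another overlapped Igkv6-32, an immunoglobulin kappa variable segment (110 reads), and was in neither WDM-CDO nor CDM-WDO. None of the strongest 20 was in CDM-WDO and 18 were in WDM-CDO. Over all one-sided peaks, 2.05% overlapped a pseudogene in CDM-CDO and 1.09% in WDM-WDO. Whether these peaks covered exons was not tested.

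Among the strongest 20 one-sided WDM-WDO peaks 0 were in immunoglobulin constant regions and 0 in pseudogenes. The first 2, at chr2:98666967-98667301 (737 reads) with no gene within 100 kb and 21.2 kb from Ly6c2 at chr15:75086693-75086951 (331 reads), stood on a local background of 118 and 29.8 reads, where the median over one-sided WDM-WDO peaks was 8.55, and no other list had them. Artefact-prone regions were not filtered here. Next came peaks within Zdhhc18 (−log10 q 71.2), a palmitoyltransferase gene, and Kif1c (54.7), a kinesin gene, near Gtf3c5 (51.6), and within Heg1 (50.5), an endothelial receptor gene of junctions. Syk (44.2), a kinase gene of immune receptors, and Grn (42.5), the lysosomal factor progranulin, followed further down. Of the 20, 18 were in WDM-CDO and 16 in CDM-WDO.

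At shared peaks the pileup was on the whole higher in WDM-WDO. Over 13804 pairs matched one to one, the median ratio of reads was 1.18, and 90% of pairs lay between 0.658 and 2.10, so values below are relative to that shift where stated. Among pairs with at least 50 reads on 1 side and summits within 100 bp, the highest were Slc15a3, an endolysosomal peptide transporter gene (193 against 32 reads, 6.03 times, 4.13 to 9.06 for counting error), Gsap (138 against 28), Cxcl2, a neutrophil chemokine gene (171 against 35, 4.89 times, 3.38 to 7.24), Acoxl (85 against 19) and Rab20 (199 against 45). In the other groups the Cxcl2 gene-start peak held 108 reads in WDM-CDO and 82 in CDM-WDO, so CDM-CDO was the lowest of the 4 lists. The lowest pair was at Cd74, the MHC class II invariant chain, with 116 against 1512 reads (0.0767 times, 0.0630 to 0.0927). The CDM-CDO peak of this pair was at chr18:60812153-60812615. Tcof1 had the identical ratio relative to all genes, 0.0647. It is read here as the same pair of peaks counted for both genes, not as a further change. Whether the pair lies at the start or the end of Cd74 was not tested. The strongest peak counted as a gene-start peak of Cd74 held 1286 reads in WDM-CDO and 105 in CDM-WDO, so both CDO lists were high. Next were Ldlrad3, Dusp10, L3mbtl3 and Psd3, with ratios of 0.293 to 0.342.

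At shared gene starts T cell markers had fewer reads in WDM-WDO, and chemokine genes more. Of 9408 genes with a shared gene-start pair, 595 (6.32%) had a ratio over 1.5 times the median of all genes and 627 (6.66%) under it by the same factor. Of 10 T cell markers, 6 were under it and 0 over, with a median of 0.616 times the median of all genes. Among the 6 was Cd3g, with 38 reads in WDM-WDO and 55 in CDM-CDO. The Cd3d peak counted above in CDM-CDO alone also held 55 reads, so both counts may rest on a single peak. Lck, a kinase gene of T cell receptor signalling, had 40 reads in WDM-WDO, 60 in CDM-CDO and 113 in WDM-CDO, and was not called in CDM-WDO. Adhesion and chemokine genes had a median of 1.41 over 7 genes, with 3 over, and Cxcl1 held 72, 28, 73 and 42 reads in WDM-WDO, CDM-CDO, WDM-CDO and CDM-WDO. For antigen presentation 5 of 12 were over and 1 under, Cd74, at the pair whose end of the gene was not tested. H2-Eb1, a class II gene, had 134 and 53 reads. For the oxidative stress genes 5 of 14 were over and 2 under, with Srxn1 at 202 and 72 reads and Keap1, the inhibitor of NRF2, at 40 and 74. For cholesterol export 4 of 12 were over and 0 under. Housekeeping genes had a median of 1.19 with 2 of 18 over.

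**Figure D3:**
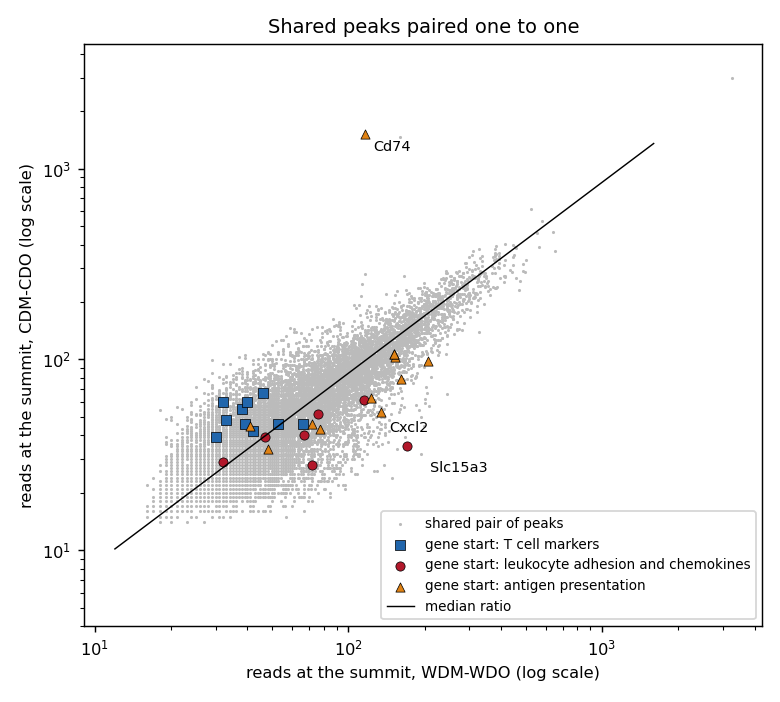
Reads at the summit of shared peaks paired one to one, WDM-WDO against CDM-CDO on log scales (grey), with the gene-start pairs of 3 gene lists and the line of the median ratio. T cell markers lie mostly above the line, and adhesion and chemokine genes mostly below it. Cd74 lies far above it at 116 and 1512 reads, at a pair whose end of the gene was not tested.

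The promoters open in 1 list differed in base composition and letters. Windows from 250 bases before to 50 after each start were searched on both strands, 861 for genes in WDM-WDO alone, 977 for CDM-CDO alone, 10221 for both and 8986 for neither. They held a median of 9, 19, 21 and 4 CG dinucleotides. PU.1 letters (GAGGAAGT) were in 6.39% of the WDM-WDO windows (4.94 to 8.22%), 2.05% of the CDM-CDO windows (1.33 to 3.14%), 2.94% of those in both and 3.19% of those in neither, and in 3.15% of all 21045 windows. AP-1 letters (TGACTCA) were in 56 of the 861 WDM-WDO windows (5.04 to 8.35%), in 3.89%, 3.31% and 6.17% of the other 3 sets in that order, and in 4.69% of all. IRF letters were in 4.76%, 1.94%, 3.06% and 3.76%, and in 3.38% of all. ETS letters (CCGGAAG), which share GGAAG with the PU.1 letters, were in 11.5%, 6.96%, 19.6% and 3.23%, and in 11.7% of all. SP and KLF letters (GGGCGGG), bound at many CG-rich promoters, were in 28.0%, 46.4%, 48.3% and 17.5%, and in 34.2% of all.

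In windows with fewer than 5 CG dinucleotides, PU.1 letters were in 35 of 242 for WDM-WDO alone (14.5%, 10.6 to 19.4%), 3 of 132 for CDM-CDO alone (2.27%), 33 of 670 for both (4.93%) and 204 of 4794 for neither (4.26%). When only windows covered by a peak were counted, the WDM-WDO share was 16.8% (12.2 to 22.7%) and that of both lists 10.9% (6.92 to 16.8%), so these intervals then overlapped. The first count came from 34 genes. Chosen after they were seen, they include the myeloid genes S100a8, Mmp8, Fcgr4, Pirb and Csf2rb2 and Spp1, which encodes osteopontin, and also Lce1d of the skin barrier, the catenin gene Ctnnd1, Nostrin, a regulator of endothelial nitric oxide synthase, and Unc119. With fewer than 5 CG, AP-1 letters were in 7.85%, 6.06%, 8.21% and 7.53% of windows for WDM-WDO alone, CDM-CDO alone, both and neither. IRF letters were in 11.6%, 2.27%, 8.06% and 5.13%. In those covered by a peak, the AP-1 shares were 7.65%, 8.20%, 13.5% and 7.41%, and the IRF shares 12.2%, 4.92%, 15.4% and 5.16%. The higher AP-1 and IRF shares of WDM-WDO alone over both lists were not kept there. A match is a description of letters and does not show that the factor was bound.

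**Figure D4:**
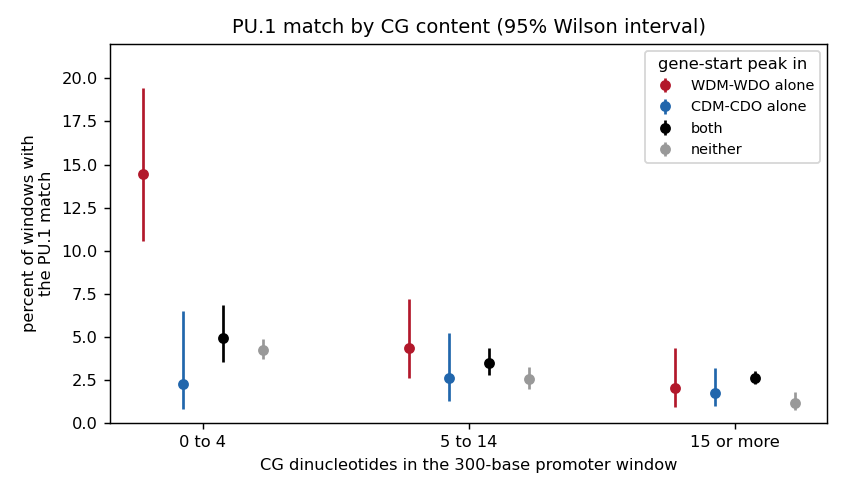
Percent of promoter windows with the PU.1 letters by number of CG dinucleotides in the window, for genes with a gene-start peak in WDM-WDO alone, CDM-CDO alone, both or neither, with 95% Wilson intervals. In windows with fewer than 5 CG the WDM-WDO share of 14.5% is above the other 3, and in windows with more CG its interval overlaps each of theirs.

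MicroRNAs are short RNAs that silence messages matching their seed, bases 2 to 8. Of 1005 hairpins in the RefSeq table of GRCm38.p6, 94 had a peak within 1 kb in both lists (9.35%), 20 in WDM-WDO alone (1.99%) and 28 in CDM-CDO alone (2.79%). The sequences below, with the seed in capitals, are those of well-studied members, chosen after values were seen, and they show where the same seed came from hairpins on opposite sides.
miR-155-5p: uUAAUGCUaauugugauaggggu
miR-17-5p: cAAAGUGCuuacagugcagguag
miR-10a-5p: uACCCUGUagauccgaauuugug
let-7i-5p: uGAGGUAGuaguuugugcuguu
miR-152-3p: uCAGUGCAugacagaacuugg
miR-148a-3p: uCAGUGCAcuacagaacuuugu
miR-199a-3p: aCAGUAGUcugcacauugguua

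miR-155, an inflammation-linked miRNA, miR-17 of the miR-17-92 cluster and miR-10a, high in endothelium, had peaks of 28, 29 and 30 reads in WDM-WDO and in none of the other 3 lists. The let-7i hairpin had a peak of 36 reads in CDM-CDO and one in WDM-CDO. Hairpins of the seed CAGUGCA were split, with Mir152 in WDM-WDO (22 reads) and Mir148a in CDM-CDO (26 reads), both also in WDM-CDO. So were those of CAGUAGU, with Mir199a-1 in WDM-WDO (32 reads) and Mir199a-2 (19 reads) and Mir199b (28 reads) in CDM-CDO. All these peaks were weak, at a −log10 q of 1.73 to 9.15.

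The one-sided share on chromosome X was lower in WDM-WDO than in CDM-CDO, also at equal list length. On each of the 19 autosomes the one-sided share was higher in WDM-WDO than in CDM-CDO, from 50.6% against 38.4% on chromosome 13 to 38.6% against 28.1% on chromosome 11. On X it was 39.0% in WDM-WDO (228 of 584, 35.2 to 43.1%) and 47.6% in CDM-CDO (322 of 676, 43.9 to 51.4%). With the WDM-WDO list cut to the length of the CDM-CDO list, an alternative chosen after seeing the data, the share was higher in WDM-WDO on 10 autosomes and in CDM-CDO on 9, so the direction on the autosomes was not kept. On X it was then 27.9% in WDM-WDO (24.1 to 32.1%) and 49.7% in CDM-CDO (45.9 to 53.5%), against 37.9% and 37.8% over the autosomes. Peaks on X made up 2.22% of the list in WDM-WDO, 3.05% in CDM-CDO, 3.09% in WDM-CDO and 3.97% in CDM-WDO. At shared pairs the median read ratio was 1.11 on X and 1.18 on autosomes.

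**Figure D5:**
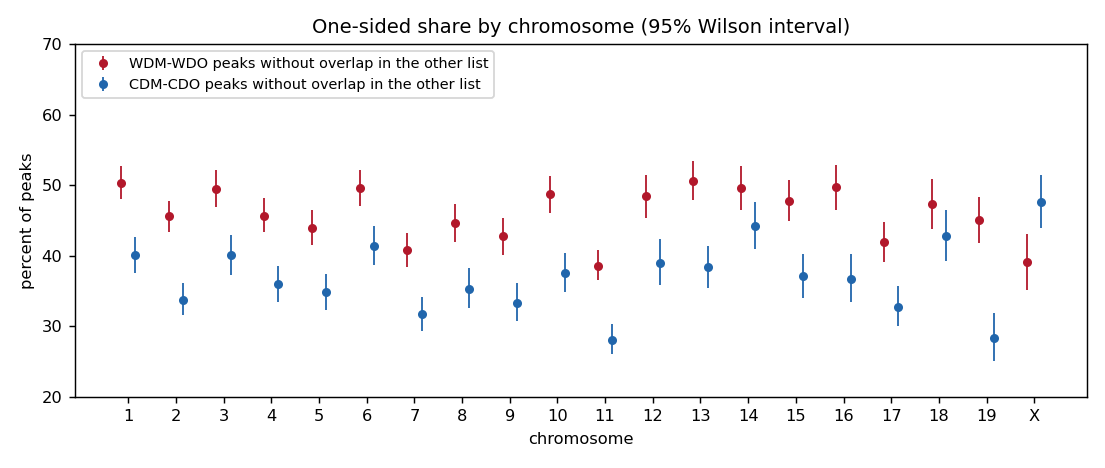
Percent of the WDM-WDO and CDM-CDO peaks on each chromosome that had no overlap in the other list, with 95% Wilson intervals. The WDM-WDO share is the higher one on all 19 autosomes and the lower one on X, 39.0% against 47.6%, with lists of unequal length (at equal length it was the higher one on 10 autosomes and the lower one on X).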

How the data were processed

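Members, gene lists and measures were chosen with earlier results of these data known. The authors deposited 1 narrowPeak list per group, and the sources used here do not give whether the 2 samples of a group were pooled. Per the submitters' processing notes the build was GRCm38 (mm10) and the tools, without settings, were MACS2 2.2.9.1, Bowtie2 2.4.5, Trim Galore 0.6.10, deepTools 3.5.4, FastQC 0.12.1 and SAMtools 1.13. The fold enrichment of a peak, a ratio, and its −log10 p and −log10 q are the values the authors deposited, and they ranked or filtered peaks within a list. Whole reads at the summit were recovered from the fold and −log10 p under MACS2's Poisson rule, and for 100% of peaks the deposited −log10 p was met within 0.0001 of its value. The deposited summit offset placed the summits. Genome background was 6.08 reads in WDM-WDO and 4.84 in CDM-CDO, a measure of depth that limits weak calls. The total reads per sample were not used here.

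Repeated intervals were counted once. Overlaps were computed in Python 3.11.15 with NumPy 2.4.6, pandas 2.3.3 and SciPy 1.17.1, and checked against bedtools 2.31.1 and on simulated data. Gene starts came from RefSeq promoters of GRCm38.p6, which hold 17274 of 21631 protein-coding genes. For the other 4357 both gene ends were used. Peaks were assigned to the nearest gene span within 100 kb. Of the 465 entries of 28 gene lists, Ighm was not matched as a protein-coding gene. Named genes were, per direction, the 10 strongest gene-start peaks, the 5 strongest peaks elsewhere, the 5 genes with most one-sided peaks, list members with a one-sided start, and the 5 highest and lowest shared pairs. Motifs NF-Y, CRE, NF-kB, GATA, E-box, NRF1, CTCF and RUNX were also searched and are not described. The 4 H3K27ac samples were not analysed here. Alternatives changed the overlap rule, the peak threshold, the list length, the gene window and the motif windows, and those of the motif windows, of overlap beyond the gene window and of list length by chromosome were chosen after seeing the data. Some items are not reported here.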

Additional observations from a re-analysis of the deposited data

Results flagged for a closer look

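Peaks on chromosome Y lay outside the comparison. There were 8 in WDM-WDO and 5 in WDM-CDO, against 4 in CDM-CDO, and 3 in CDM-WDO. All lay between 90737845 and 90812983 on chromosome Y of GRCm38, with 22 to 80 reads at the summit. The difference was not tested.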

How the results depend on the processing

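No paired analysis was possible because each group had 1 peak list, and for the same reason no sample could be left out. One-sided peaks numbered 5413 in WDM-WDO and 3357 in CDM-CDO when peaks under a −log10 q of 5 were left out, and 2366 and 1581 when only those expected at 2 times the calling pileup were counted. Under the overlap, gap, merging, −log10 q of 2 and equal-length alternatives the counts stayed within 1.5 times, at 8358 to 14282 and 7087 to 10185. Genes with a one-sided start numbered 736 to 981 in WDM-WDO and 858 to 1105 in CDM-CDO. The share of one-sided WDM-WDO peaks in WDM-CDO was 24.4% at a −log10 q of 2, 25.15% at equal list length and 19.7% at a reciprocal overlap of 50%, and in CDM-WDO it was 24.8% and 13.4% under the last pair. For CDM-CDO the share in WDM-CDO was 46.7%, 48.2% and 40.1%, and in CDM-WDO 13.6% at equal length and 11.8% at reciprocal overlap. The cause of these shifts was not tested. The median ratio at shared peaks was 1.17 to 1.19. Macrophage starts in WDM-WDO alone numbered 6 to 9, against 0 or, at equal length, 1 in CDM-CDO alone, neutrophil starts 2 to 4, and T cell starts in CDM-CDO alone 3 to 5. Endothelial starts were 1 to 4 on each side.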
